A study of Mus musculus with 8 samples.

Results

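The ZFHX and FOG transcription factors of the mouse optic nerve (ON) were followed across cell types and genotypes in single-nucleus RNA counts. The set holds 6 of the 33696 genes counted, of which 28626 were detected in the nuclei kept. It comprises *Zfhx2*, *Zfhx3* and *Zfhx4*, the FOG genes *Zfpm1* and *Zfpm2*, and the long non-coding RNA *2700069I18Rik*, which lies next to *Zfhx4*. They were chosen by name, because the oligodendrocyte (OL) levels of *Zfhx4* and *Zfpm2* were lower in the libraries labelled cKO, so their OL difference between genotypes is a description here and carries no test. The study asked what the mechanosensitive ion channel Piezo2 does in OLs. The 4 control libraries (replicates 1 to 4) came from Piezo2f/f mice without cre, and the 4 libraries labelled cKO (replicates 10 to 13) from Olig2-cre;Piezo2f/f mice. All mice were C57BL/6J females at P120, both groups carried the floxed *Piezo2* alleles, and each library pooled 6 ONs. Olig2-cre is driven by the *Olig2* locus, which is active in the whole OL lineage and not in mature OLs alone, and the insertion takes the place of 1 *Olig2* allele in the cKO mice.

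ZFHX proteins are very large transcription factors that carry several homeodomains beside many zinc fingers. *Zfhx3*, also known as ATBF1, is expressed in developing and in circadian clock neurons, *Zfhx2* has been linked to pain perception and behaviour, and *Zfhx4* to neuronal differentiation and, in glioblastoma, to the NuRD chromatin remodeler. The FOG proteins, FOG1 from *Zfpm1* and FOG2 from *Zfpm2*, do not act through DNA binding of their own but bind GATA factors and recruit the NuRD complex and CtBP corepressors; FOG1 is known from blood cell formation and FOG2 from the heart and gonads.

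The pair of genes lower in OLs lies on different chromosomes. On GRCm39 with the GENCODE annotation, *Zfhx4* spans chr3:5283586-5480917 on the plus strand (11 exons) and *Zfpm2* chr15:40518278-40970261 on the plus strand (8 exons). *2700069I18Rik* spans chr3:5242595-5286170 on the minus strand (3 exons), so that it overlaps the first 2.585 kb of *Zfhx4* head to head. Its start lies 2584 bases downstream of the canonical *Zfhx4* start. *Zfhx3* spans chr8:108669276-109688262 (plus), *Zfpm1* chr8:123008805-123065024 (plus) and *Zfhx2* chr14:55297719-55329826 (minus). The 250 bases before the annotated start are shown for *2700069I18Rik* and *Zfpm2*, since both had lower OL levels in the libraries labelled cKO. They are written 5′ to 3′ on the strand of the gene, with every CG dinucleotide in capitals, and come from chr3:5286171-5286420 (minus) and chr15:40518028-40518277 (plus).
2700069I18Rik: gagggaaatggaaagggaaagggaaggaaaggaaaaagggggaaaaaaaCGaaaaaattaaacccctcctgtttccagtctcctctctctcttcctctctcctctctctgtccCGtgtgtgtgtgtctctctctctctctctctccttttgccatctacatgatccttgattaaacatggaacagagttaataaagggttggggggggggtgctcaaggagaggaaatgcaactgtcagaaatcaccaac
Zfpm2: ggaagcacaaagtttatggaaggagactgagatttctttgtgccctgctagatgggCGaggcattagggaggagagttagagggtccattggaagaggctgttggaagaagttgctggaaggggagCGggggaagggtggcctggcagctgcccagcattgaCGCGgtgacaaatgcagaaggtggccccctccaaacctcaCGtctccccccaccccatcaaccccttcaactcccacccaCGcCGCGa
The *Zfpm2* stretch held 8 CG dinucleotides, a number reached by 40.5% of 33184 annotated starts, and had a GC content of 58.4%. The stretch before *2700069I18Rik* held 2 (79.8% of starts) at 46.4% GC, below the median of all starts of 51.2%. The letters GATA, searched on both strands, were absent from both stretches, while 56.1% of all starts held them. CAGCTG, which reads the same on both strands, occurred once before *Zfpm2* and in 12.8% of all starts.

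A library held 39628926 to 56541132 UMIs, and after calling of nuclei and quality filters 16651 control and 20212 cKO nuclei remained, with a median of 2414 to 3338 UMIs per nucleus. The tests used 8 types named from marker genes, OLs (7975 control and 11350 cKO nuclei), OL precursor cells (OPCs, 412 and 529), astrocytes (3818 and 3716), fibroblasts (1645 and 1703), endothelial cells (193 and 245), myeloid cells (714 and 848), T cells (71 and 70) and neurons (232 and 150). Committed OPCs (45 and 62) and mural cells (40 and 45) were too few for tests. Every marker was highest in its own type, except 1 of 6 OPC markers. Control replicate 3 stood apart, since it held 133 of the 232 control neurons, whose cell bodies are not part of the nerve itself, and the most RNA of pituitary genes in its nuclei, so results were also computed without it. Libraries shared 1 to 11 nucleus barcodes per pair. The label check gave no fall of *Piezo2*, which stood at 506.3, 392.1, 405.8 and 494.2 CPM, the UMIs of a gene per 1000000 UMIs of its sum, in control OLs and at 534.9, 535.6, 573.3 and 518.6 in OLs of the libraries labelled cKO. Every library labelled cKO thus lay above every control library. Counts per gene cannot show whether the floxed part was deleted. *Olig2* stood at 23.9, 31.8, 41.5 and 27.7 CPM in control OLs and at 44.1, 52.1, 48.8 and 44.0 in the libraries labelled cKO, without overlap (log2 fold change 0.58 ± 0.15 (SE), edgeR adjusted p = 0.27). Empty droplets held 56.1, 62.0, 54.1 and 55.3 CPM of *Olig2* in the controls and 58.5, 82.8, 80.7 and 66.7 in the libraries labelled cKO. These lay above the OL value of each library. The part of this RNA in the OL values was not tested. The share of all genes that lay higher without overlap was not computed.

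To place the 6 genes among the cell types of the healthy ON, UMIs were summed per control library and cell type, and each type was compared with the mean of the other 7 in 1 fit over 11990 genes (edgeR's quasi-likelihood test). A gene was called when its adjusted p was below 0.05 and its log2 fold change exceeded 0.5 in size. Log2 fold changes are given with their SE, and mean levels with the SD over 4 libraries. *Zfhx2* was raised in OLs, *Zfpm1* in OLs and endothelial cells, *Zfhx3* in myeloid cells and neurons, *Zfhx4* in astrocytes, neurons and fibroblasts, *2700069I18Rik* in astrocytes and neurons, and *Zfpm2* in OPCs, astrocytes, neurons and fibroblasts. Of 48 tests, 14 were called higher and 11 lower. By type, 4 of 6 members were called in astrocytes (40.5% of all genes tested were), 3 in OLs (41.5%), 2 in OPCs (25.0%), 4 in fibroblasts (36.1%), 4 in myeloid cells (33.2%), 4 in neurons (37.8%), 2 in endothelial cells (17.9%) and 2 in T cells (8.87%), so that calls were common among all genes of this tissue. Between single pairs of types, 11.4% to 50.1% of all genes were called.

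**Figure D1:**
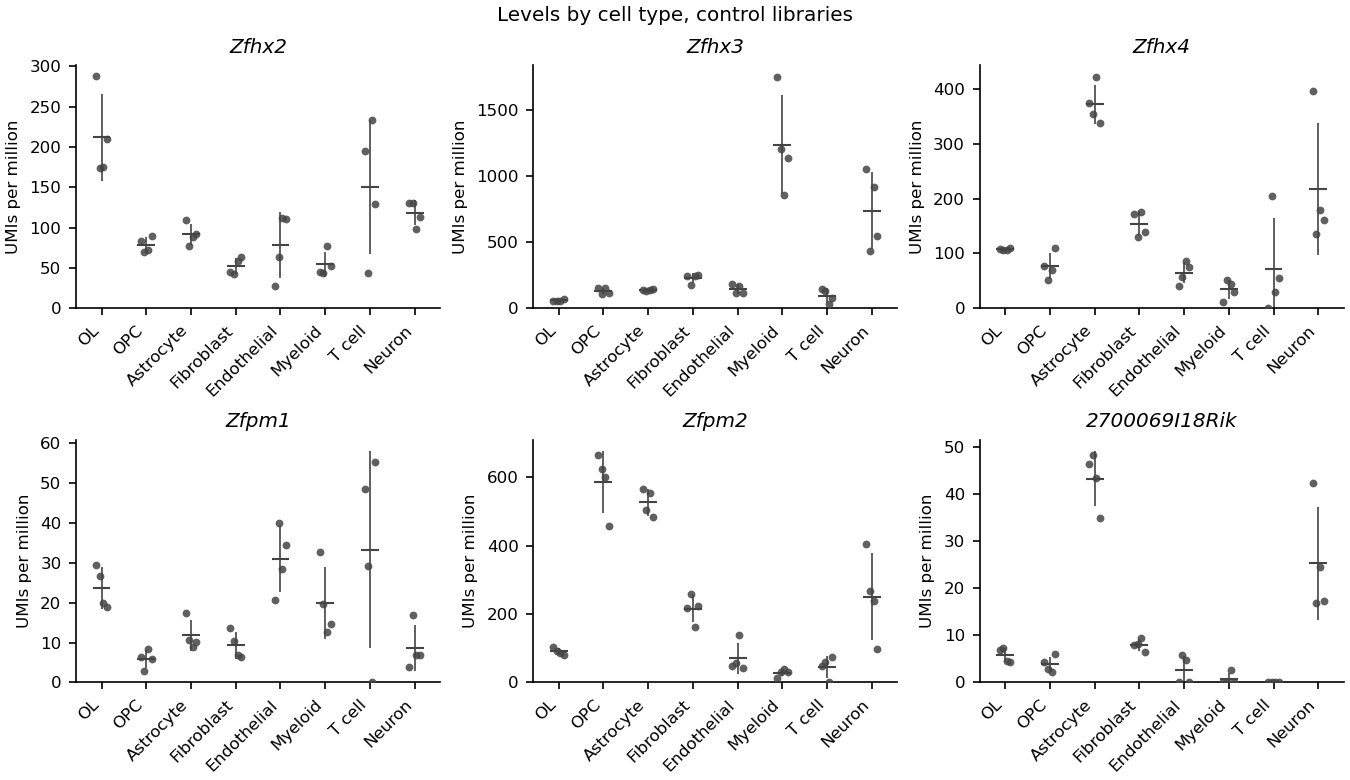
Levels of the 6 members in 8 cell types of the control libraries, in CPM on a linear axis starting at 0; each point is 1 library and each bar the mean of 4. *Zfhx2* peaks in OLs, *Zfhx3* in myeloid cells and neurons, *Zfhx4* and *2700069I18Rik* in astrocytes, and *Zfpm2* in OPCs and astrocytes.

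Among the 8 types tested, *Zfhx2* had its highest mean in OLs; the 2 control libraries with enough committed OPCs, which entered no test, had a mean of 227.8 CPM. It measured 288.4, 173.9, 175.6 and 209.6 CPM in control OLs and was higher there than in the other types (log2 fold change 1.61 ± 0.14 (SE), adjusted p = 1.9e-12). T cells came next with 44.0 to 233.4 CPM and were lower than OLs (1.30 ± 0.35, adjusted p = 0.0048), although single libraries overlapped. No later neighbour in the order was called, from neurons (118 ± 15.7 (SD, n = 4)) through astrocytes (91.5 ± 13.5), OPCs (78.5 ± 9.43), endothelial cells (78.1 ± 40.7) and myeloid cells (54.6 ± 15.7) to fibroblasts (52.4 ± 10.4). Against the mean of the other types *Zfhx2* was called lower in fibroblasts (-0.94 ± 0.18) and myeloid cells (-0.91 ± 0.22). The lncRNA *Zfhx2os* covers all 32.108 kb of *Zfhx2* on the other strand, and it too was higher in OLs (2.12 ± 0.18, adjusted p = 5.5e-13). Whether the counting used strand is not given in the sources used here, and how reads of the 2 genes were assigned was not checked. In neurons *Zfhx2* was not called (0.41 ± 0.20, adjusted p = 0.10). It passed the threshold without control replicate 3 (0.67, adjusted p = 0.032), with DESeq2 (0.52) and with other size factors (0.51), and stood at 0.10 (adjusted p = 0.93) with nuclei thinned to 1000 UMIs. With thinned nuclei the call in myeloid cells was lost (-0.61, adjusted p = 0.15).

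*Zfhx3* had its lowest mean in OLs, where *Zfhx2* had its highest among the types tested. Myeloid cells held 1750.7, 1202.2, 857.4 and 1132.0 CPM, and neurons 1053.7, 435.2, 916.6 and 547.1. Control OLs held 57.9, 52.2, 56.6 and 68.5 CPM, below every myeloid and neuronal value. Empty droplets of the controls held 47.8, 46.5, 64.7 and 49.7 CPM, near these OL values. *Zfhx3* was higher in myeloid cells (2.86 ± 0.15, adjusted p = 4.0e-19) and in neurons (2.20 ± 0.16, adjusted p = 1.0e-14), and lower in OLs (-1.80 ± 0.21, adjusted p = 1.1e-09), T cells (-1.65 ± 0.36, adjusted p = 0.0013) and astrocytes (-0.62 ± 0.19, adjusted p = 0.0066). The astrocyte difference was no longer called without control replicate 1 (-0.48) or with coarser clusters (-0.43). In the order of levels, myeloid cells exceeded neurons (0.58 ± 0.23, adjusted p = 0.036), neurons exceeded fibroblasts (228 ± 34.8 CPM; 1.77 ± 0.24), and fibroblasts exceeded endothelial cells (145 ± 35.2; 0.71 ± 0.27, adjusted p = 0.048). Endothelial cells, astrocytes (136 ± 4.81), OPCs (132 ± 23.0), T cells (95.2 ± 54.0) and OLs (58.8 ± 6.89) did not differ from their neighbours beyond the spread. With the library as a replicate block, *Zfhx3* was also called lower in endothelial cells (-0.63, adjusted p = 0.025; 19.0% of all genes were called in that fit) and in OPCs (-0.54, adjusted p = 0.019; 26.3%). Without a filter on low counts both were called too (-0.68 and -0.55), and with DESeq2 the endothelial one was (-0.64).

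*Zfhx4* and *2700069I18Rik* shared their leading types. *Zfhx4* measured 374.7, 355.0, 421.6 and 339.0 CPM in control astrocytes, and 396.1, 135.2, 178.8 and 161.7 in neurons. Control OLs held 108.5, 106.2, 105.4 and 110.4 CPM, the narrowest spread of the 8 types tested and below all astrocyte values. The astrocyte difference from the other types was 2.07 ± 0.18 (adjusted p = 5.2e-13) and the neuronal one 1.18 ± 0.22 (adjusted p = 3.1e-05), while that of OLs was 0.22 ± 0.20 (adjusted p = 0.40). Myeloid cells were lowest of the 8 types at 11.7 to 51.5 CPM (-1.97 ± 0.30, adjusted p = 7.4e-07). Astrocytes exceeded neurons (0.78 ± 0.26, adjusted p = 0.014), and no later neighbour was called, among them fibroblasts (154 ± 22.9 CPM), OLs (108 ± 2.29), OPCs (77.0 ± 23.8), T cells (72.4 ± 91.4) and endothelial cells (65.0 ± 19.8). The call of *Zfhx4* in fibroblasts (0.55 ± 0.20, adjusted p = 0.024) was lost without control replicate 1 (0.43), 3 (0.50) or 4 (0.56, adjusted p = 0.081) and with DESeq2 (0.52, adjusted p = 0.056), while with nuclei thinned to 1000 UMIs the difference was larger (1.06, adjusted p = 1.8e-05). In endothelial cells *Zfhx4* was at -0.86 ± 0.31 (adjusted p = 0.0502). It was called there with the replicate block (-0.85, adjusted p = 0.043), without control replicate 1 (-0.77, adjusted p = 0.041), with DESeq2 (-0.89), with other size factors (-0.87) and without a filter (-0.89), and with thinned nuclei it was -1.43 (adjusted p = 0.051). In T cells it was called lower without control replicate 2 (-2.42, adjusted p = 0.024) or without a filter (-1.09, adjusted p = 0.029). In OLs it was called higher with thinned nuclei (0.71, adjusted p = 0.0014).

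The lncRNA *2700069I18Rik*, for which no function is assumed here, was found mostly in the types with the most *Zfhx4*. It measured 46.2, 48.2, 43.4 and 34.9 CPM in control astrocytes and 42.3, 16.9, 24.6 and 17.2 in neurons. All control libraries of the other types tested stayed at or below 9.32 CPM. It was higher in astrocytes by 3.93 ± 0.26 (adjusted p = 2.4e-15) and in neurons by 3.04 ± 0.44 (adjusted p = 4.0e-07). Astrocytes exceeded neurons (0.78 ± 0.27, adjusted p = 0.019), and neurons exceeded fibroblasts (7.92 CPM; 1.7 ± 0.34, adjusted p = 6.1e-05). OLs (5.84 ± 1.57) and OPCs (3.81 ± 1.69) followed, with no further neighbour called. In control myeloid cells it had 2 UMIs in replicate 3 and 0 in the other libraries, and there it was called lower by DESeq2 (adjusted p = 0.0066) but not by edgeR. Astrocytes held 60.9% ± 13.7 of a control library's *2700069I18Rik* UMIs (SD, n = 4), and OLs 15.9%, although OLs were the more numerous nuclei.

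The FOG genes were distributed in opposite ways. *Zfpm2* measured 663.7, 622.1, 600.7 and 456.3 CPM in control OPCs and 564.9, 502.6, 553.8 and 484.2 in astrocytes. Control OLs held 104.6, 92.1, 87.1 and 79.9 CPM, so the mature OLs lay below every OPC library. The OPC difference from the other types was 2.52 ± 0.18 (adjusted p = 9.5e-15) and that of astrocytes 2.22 ± 0.18 (adjusted p = 7.1e-14). The test did not separate OPCs from astrocytes (0.26 ± 0.25, adjusted p = 0.46). Astrocytes exceeded neurons (251 ± 126 CPM; 1.08 ± 0.26, adjusted p = 0.00073), and fibroblasts (216 ± 39.0) exceeded OLs (90.9 ± 10.4; 1.00 ± 0.25, adjusted p = 0.00066). Neurons and fibroblasts were called above the mean of the other types (0.99 ± 0.22 and 0.66 ± 0.20), and myeloid cells (-2.74 ± 0.31), T cells (-2.18 ± 0.49) and endothelial cells (-0.99 ± 0.29, adjusted p = 0.012) below it. The fibroblast call was lost without control replicate 2 (0.61, adjusted p = 0.075) and the endothelial call without control replicate 1 (-0.81, adjusted p = 0.059) or 2 (-0.88, adjusted p = 0.12). For OLs, *Zfpm2* missed the threshold (-0.48 ± 0.21, adjusted p = 0.059). It passed the threshold without control replicate 1 (-0.54), with DESeq2 (-0.68) and with other size factors (-0.69), and was smaller with nuclei thinned to 1000 UMIs (-0.25, adjusted p = 0.38).

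*Zfpm1* was at low levels throughout. Control OLs held 29.6, 26.8, 19.8 and 18.9 CPM and OPCs 2.89 to 8.46, so that within the OL lineage it was higher in the mature cells, where *Zfpm2* was lower. Empty droplets of these libraries held 23.7, 18.8, 18.3 and 10.2 CPM, above all OPC values and below the OL value of each library. The part of this RNA in the levels was not tested. *Zfpm1* was called higher in OLs (1.02 ± 0.19, adjusted p = 2.2e-05) and endothelial cells (1.09 ± 0.37, adjusted p = 0.031) and lower in OPCs (-1.27 ± 0.43, adjusted p = 0.025) and fibroblasts (-0.84 ± 0.27, adjusted p = 0.011). The endothelial call was lost without control replicate 2 (0.95), 3 (1.02) or 4 (1.01), the OPC call without replicate 1 (-1.17), 2 (-1.02) or 4 (-1.23), and the fibroblast call without replicate 4 (-0.71, adjusted p = 0.094). With the replicate block, *Zfpm1* was also called lower in neurons (-0.89, adjusted p = 0.042; 39.4% of all genes were called). T cells (33.3 ± 24.8 CPM), endothelial cells (30.9 ± 8.33), OLs (23.8 ± 5.25), myeloid cells (19.9 ± 8.99), astrocytes (11.8 ± 3.90), fibroblasts (9.39 ± 3.38), neurons (8.63 ± 5.70) and OPCs (5.93 ± 2.30) formed an order in which no neighbours were called; with the replicate block OLs exceeded myeloid cells (0.61 ± 0.25, adjusted p = 0.035).

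The members differ in gene length, from *Zfhx2* with 32.108 kb to *Zfhx3* with 1018.987 kb, so levels were set against each other per kb of gene. In control OLs *Zfhx2* led with 6.60 CPM per kb, followed by *Zfhx4* (0.545), *Zfpm1* (0.423), *Zfpm2* (0.201), *2700069I18Rik* (0.134) and *Zfhx3* (0.0577). In control astrocytes the order was *Zfhx2* (2.85 CPM per kb), *Zfhx4* (1.89), *Zfpm2* (1.16), *2700069I18Rik* (0.991), *Zfpm1* (0.210) and *Zfhx3* (0.133). *Zfhx2* thus led per kb of annotated span in both types, and *Zfhx3* came last. The place of *Zfhx3* rests on the full span, since its canonical transcript starts at chr8:109441276, inside a gene annotated from 108669276. Levels per kb of transcript were not computed.

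Likeness of pattern was measured as Pearson's r of mean levels over the 8 cell types of the controls, taken as log2(CPM + 1), a description over 8 points that come from the same 4 libraries. Among the members, *Zfhx4* and *2700069I18Rik* were most alike (r = 0.91), *Zfpm2* resembled *2700069I18Rik* (0.77) and *Zfhx4* (0.73), and *Zfpm1* and *Zfpm2* ran against each other (-0.83). Among 15327 genes, the closest to *Zfhx4* were *Ccdc136* (0.98), *Ubr7* (0.97) and *Tbc1d19* (0.96), and the closest to *Zfpm2* were *Dlg3* (0.97), *Kyat1* (0.96) and *Zfp462* (0.96). For *2700069I18Rik* they were *Sun1* (0.97), *Dync2i1* (0.97) and *Psmd1* (0.96), for *Zfhx2* *Acss2* (0.98), *Ttll5* (0.97) and *Gm26531* (0.96), for *Zfhx3* *Trpm2*, *Kcnk12* and *Ccdc93* (each 0.96), and for *Zfpm1* *1110059E24Rik* (0.98), *Cyb5a* (0.95) and *Klf13* (0.95).

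In OLs, the choice of the set rests on the following values. *Zfhx4* measured 108.5, 106.2, 105.4 and 110.4 CPM in the control libraries and 36.7, 44.2, 46.8 and 46.0 in the libraries labelled cKO, a log2 fold change of -1.32. *Zfpm2* measured 104.6, 92.1, 87.1 and 79.9 CPM in the controls and 45.9, 47.5, 46.5 and 47.1 in the libraries labelled cKO, a log2 fold change of -0.98. *2700069I18Rik* measured 7.0, 7.4, 4.6 and 4.4 CPM in the controls and 2.4, 3.8, 2.5 and 2.9 in the libraries labelled cKO (log2 fold change -1.0), from 19 to 50 and from 15 to 41 UMIs. In these 3 genes every control library lay above every cKO library, as it did in 3.28% of all genes tested, from which nothing is read here because these values chose the members. The other members overlapped between the groups. *Zfhx2* held 288.4, 173.9, 175.6 and 209.6 CPM against 284.5, 206.4, 174.3 and 134.4 in the libraries labelled cKO (-0.11), *Zfhx3* 52.2 to 68.5 against 59.2 to 64.8 (0.07) and *Zfpm1* 18.9 to 29.6 against 25.2 to 29.8 (0.17). Over all genes, 13 of 14451 were called between the genotypes in OLs (0.09%), 4 higher and 9 lower (0.0623%). RNA of other cells also differed with the label. The summed level of 5 pituitary genes in OLs was 27.0 to 1008 CPM (median 69.3) in the controls and 2.65 to 18.8 (median 4.51) in the libraries labelled cKO, without overlap, and none of the 5 was at 0. The summed level of 4 haemoglobin genes, markers of red blood cells, was 1433 to 2723 CPM (median 2266) and 564 to 1444 (median 718), and none of the 4 was at 0. Their part in the OL values of the members was not tested. Without 1 library at a time, the log2 fold change ranged from -1.38 to -1.25 for *Zfhx4*, from -1.04 to -0.90 for *Zfpm2* and from -1.16 to -0.89 for *2700069I18Rik*. Without the OL subcluster led by pituitary genes, which came mostly from 1 library, the values were -1.31, -1.03 and -1.02. Both sets of values come from the OLs that chose the members, so nothing is read from their stability.

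**Figure D2:**
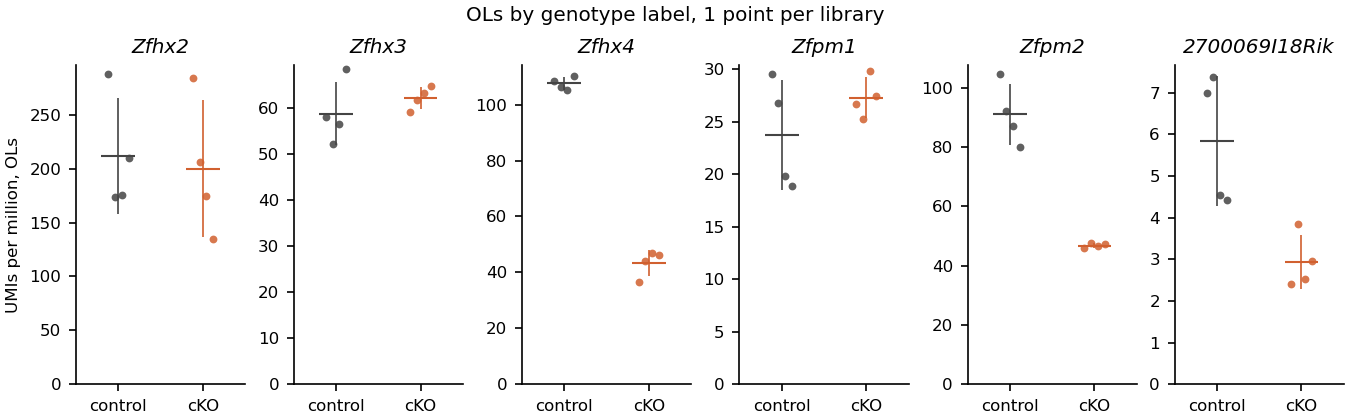
OL levels of the 6 members by genotype label, in CPM on linear axes starting at 0, with 1 point per library (4 control, 4 labelled cKO) and bars at the means. *Zfhx4* lies at 105.4 to 110.4 in the controls and 36.7 to 46.8 in the libraries labelled cKO, *Zfpm2* at 79.9 to 104.6 and 45.9 to 47.5, while *Zfhx2*, *Zfhx3* and *Zfpm1* overlap.

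RNA of *Zfhx4* and *Zfpm2* from outside the nuclei moved in the same direction. In 40000 empty droplets per library, *Zfhx4* measured 59.9, 59.8, 59.5 and 55.0 CPM in the controls and 36.6, 30.1, 44.2 and 46.6 in the libraries labelled cKO, without overlap. The OL level of these libraries was 36.7, 44.2, 46.8 and 46.0 CPM, close to their own empty droplets in replicates 10, 12 and 13 and higher in replicate 11. *Zfpm2* measured 35.9, 42.7, 42.8 and 45.7 CPM in control and 28.5, 22.0, 27.9 and 34.9 in cKO empty droplets, below the OL values of either group. *2700069I18Rik* overlapped there, at 6.6, 5.8, 5.2 and 5.3 CPM in control and 6.0, 3.8, 4.4 and 5.0 in cKO empty droplets. Its mean OL level of 5.84 CPM in the controls and 2.93 in the libraries labelled cKO was near this background or below it. The share of all genes without overlap in empty droplets was not computed. The part of RNA from outside the nuclei in the OL values was not tested. The share of OLs with at least 1 *Zfhx4* UMI was 23.3% ± 3.11 in the controls and 9.59% ± 1.04 in the libraries labelled cKO (SD, n = 4), at a median of 2789 and 2563 UMIs per nucleus. With every nucleus thinned to 1000 UMIs, which left out 350 control and 346 cKO OLs, the shares were 10.3% ± 0.794 and 3.99% ± 0.35. Myeloid nuclei gave thinned shares of 1.66% and 0.854% (as counted, 6.98% and 3.5% at medians of 2144 and 1822 UMIs). The same shares for *Zfpm2* were 17.8% ± 0.836 and 9.45% ± 0.385 of OLs as counted, 8.34% and 4.29% thinned, and 1.21% and 1.05% of thinned myeloid nuclei. Myeloid nuclei were taken as the background because they had the lowest level of both genes among the 8 types tested, so a share above theirs is given as a value and nothing is read from it.

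OLs were subclustered without the member genes, and 9 subclusters held at least 3 libraries of each group. *Zfhx4* was lower on average in the libraries labelled cKO in 9 of 9 subclusters, without overlap of libraries in 7, and the log2 ratio ranged from -1.85 to -0.83 (median -1.23). *Zfpm2* was also lower in 9 of 9, without overlap in 5 (-1.47 to -0.39, median -0.78). *2700069I18Rik* was lower in 7 of 9, without overlap in 3. The share of all genes without overlap within a subcluster was not computed. The OLs are the same as those that chose the members, so these counts describe where in the OL population the difference lay. The subclusters also took different shares of the OLs. That led by *Adgrv1* held 44.3%, 23.8%, 5.39% and 16.1% of OLs in the controls and 8.59%, 4.69%, 19.5% and 8.0% in the libraries labelled cKO, and that led by *Vtn* held 3.17%, 11.9%, 5.29% and 19.3% and 7.92%, 29.4%, 11.6% and 40.4%. Shares overlapped between the groups in both. That led by *Tnfsf11* did not overlap, with 10.9%, 13.4%, 6.84% and 13.3% in the controls and 16.9%, 16.8%, 17.6% and 14.2% in the libraries labelled cKO, and *Zfhx4* there measured 67.4 to 111.4 and 21.2 to 37.1 CPM. The part of these shares in the OL totals was not tested. In the subcluster led by *Dlc1*, *Zfhx4* measured 60.4 to 63.0 CPM in the controls and 25.1 to 28.9 in the libraries labelled cKO. In that led by *Adgrv1* it measured 144.4 to 193.8 and 49.2 to 71.0 CPM, and in that led by *Grm8* 105.1 to 185.4 and 45.7 to 67.0. *Zfpm2* was highest in the subcluster led by *Kit*, together with *7630403G23Rik*, *Synpr*, *Nav3* and *Kirrel3*, at 172.2 to 252.2 CPM in the controls and 110.2 to 147.1 in the libraries labelled cKO. *Zfpm2* was lowest in the *Dlc1* subcluster, at 26.5 to 53.1 and 10.5 to 22.4 CPM. *Zfhx3* showed the reverse order of subclusters, with 87.3 to 104.3 CPM in the *Dlc1* subcluster and 22.8 to 38.2 in the *Kit* subcluster of the controls, and it overlapped between genotypes in all 9. In 8 astrocyte subclusters, *Zfhx4* and *Zfpm2* overlapped between the genotypes in 8 of 8. The mean in the libraries labelled cKO was lower in 3 of 8 for *Zfhx4* (log2 ratio -0.11 to 0.07, median 0.01) and in 8 of 8 for *Zfpm2* (-0.33 to -0.02, median -0.16).

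**Figure D3:**
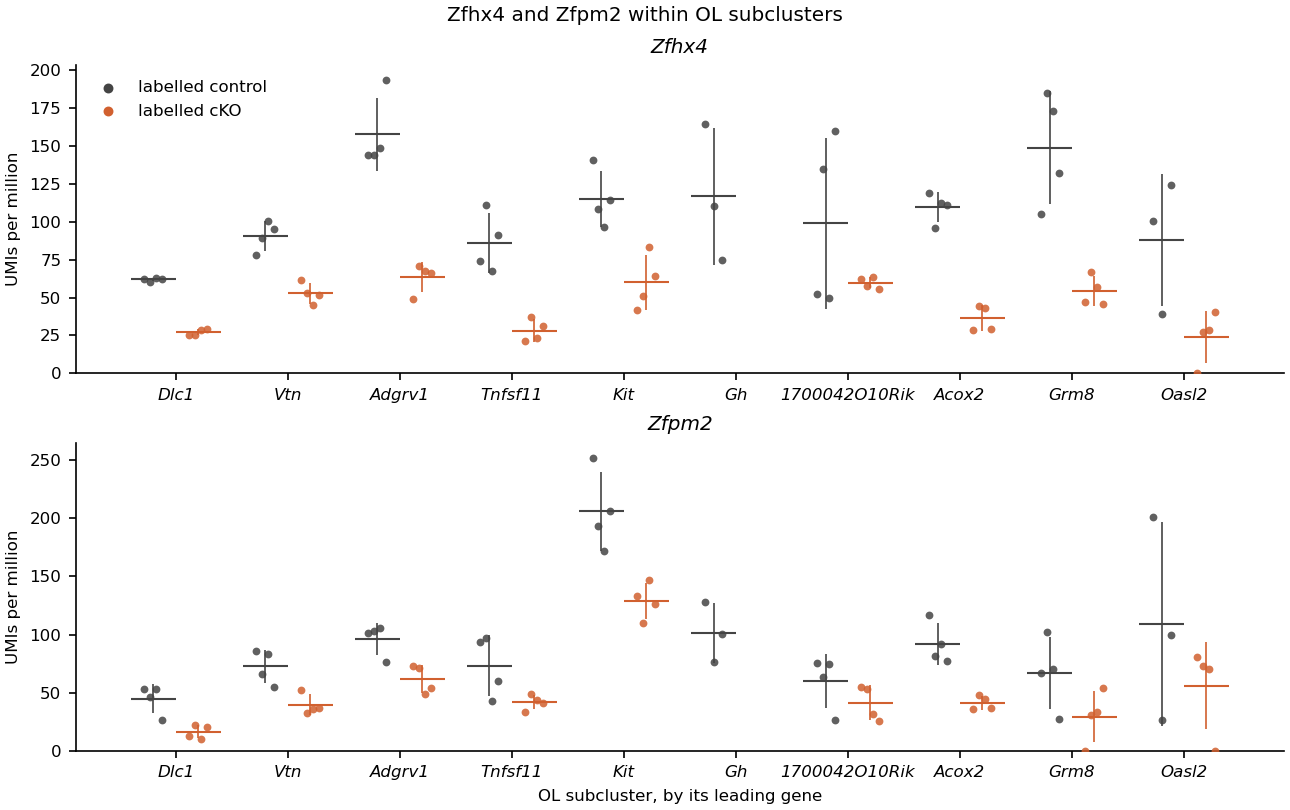
*Zfhx4* and *Zfpm2* in OL subclusters named by their leading gene, in CPM on linear axes starting at 0, with 1 point per library and genotype label. The control points of *Zfhx4* lie above all cKO points in 7 of 9 subclusters, and those of *Zfpm2* in 5 of 9, with the *Kit* subcluster highest for *Zfpm2*. The share of all genes that separate within a subcluster was not computed.

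To see whether the members differed between genotypes outside OLs, the same test was run in 6 other cell types, which the choice of the set did not use. Of 26 member tests by edgeR, 0 were called, and 0 with DESeq2. Over all genes, 0.151% were called in OPCs, 0.166% in endothelial cells and 0 genes in astrocytes, fibroblasts, myeloid cells and neurons, where 990, 566, 384 and 308 genes had an unadjusted p under 0.05 (534 in OPCs, 230 in endothelial cells). In OPCs, which also express *Olig2*, *Zfhx4* measured 77.1, 52.1, 69.8 and 109.1 CPM in the controls and 39.2, 37.0, 40.5 and 49.6 in the libraries labelled cKO, without overlap, as in 1.92% of all genes tested. The log2 fold change was -0.93 ± 0.24 (95% interval -1.40 to -0.46, adjusted p = 0.21), and without a filter on low counts it was called (-0.91, adjusted p = 0.045). Empty droplets held 59.9, 59.8, 59.5 and 55.0 CPM of *Zfhx4* in the controls and 36.6, 30.1, 44.2 and 46.6 in the libraries labelled cKO. The OPC values of the latter were near their empty droplets, and control replicate 2 lay below its own. The part of this RNA in the OPC values was not tested. *Zfpm2* in OPCs overlapped, at 663.7, 622.1, 600.7 and 456.3 against 486.3, 370.0, 500.9 and 607.0 CPM (-0.27 ± 0.17, adjusted p = 0.78). *Olig2* in OPCs measured 109.2 to 203.0 CPM in the controls and 185.4 to 304.2 in the libraries labelled cKO (0.67 ± 0.20, adjusted p = 0.38).

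In astrocytes, where both genes were abundant, the groups overlapped for both. *Zfhx4* measured 374.7, 355.0, 421.6 and 339.0 CPM in the controls and 321.1, 346.5, 399.7 and 382.5 in the libraries labelled cKO (-0.04 ± 0.11, 95% interval -0.26 to 0.17, adjusted p = 0.95). *Zfpm2* measured 564.9, 502.6, 553.8 and 484.2 against 487.9, 452.5, 457.0 and 454.1 CPM (-0.19 ± 0.10, adjusted p = 0.71), with only cKO replicate 10 above the lowest control library. *2700069I18Rik* measured 46.2, 48.2, 43.4 and 34.9 against 57.0, 56.9, 55.9 and 41.5 CPM (0.29 ± 0.14, adjusted p = 0.71), the opposite direction to its OL values. The difference of the genotype effect between astrocytes and OLs was not tested, because the OL values chose the members.

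Fibroblasts overlapped as well. *Zfhx4* measured 172.1, 130.7, 175.6 and 138.8 CPM in the controls and 116.7, 98.6, 191.9 and 127.1 in the libraries labelled cKO (-0.21 ± 0.19), and *Zfpm2* 218.2, 257.3, 163.2 and 224.1 against 253.9, 200.7, 194.4 and 199.7 (-0.03 ± 0.14). In myeloid cells, *Zfhx4* was sparse, at 11.7, 51.5, 44.4 and 29.2 CPM against 26.7, 11.5, 21.5 and 12.2 (-1.04 ± 0.41, adjusted p = 0.96). Myeloid *Zfhx3*, the highest level of that gene, overlapped at 857.4 to 1750.7 and 1095.3 to 1386.7 CPM. In neurons, *Zfhx3* measured 1053.7, 435.2, 916.6 and 547.1 against 401.8, 312.4, 544.5 and 475.3 CPM (-0.74 ± 0.29, adjusted p = 0.87), with 3 control libraries above all cKO libraries and control replicate 2 among them.

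**Figure D4:**
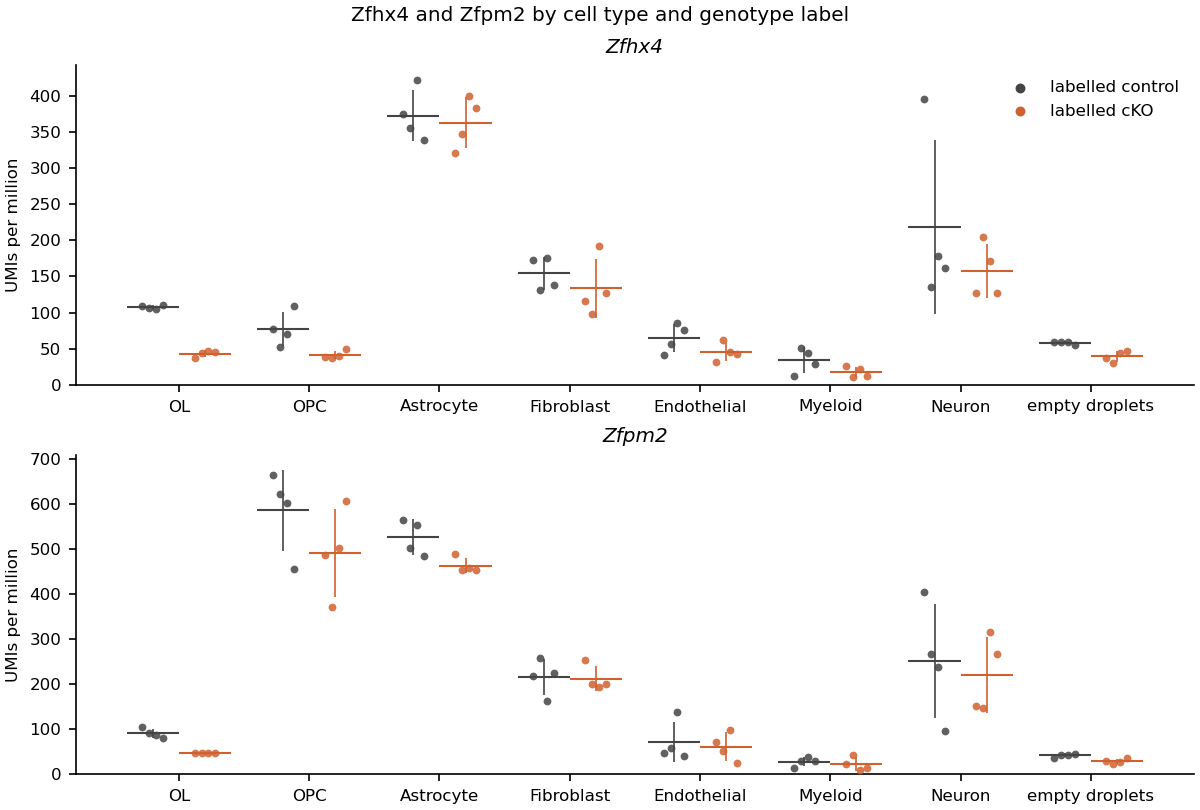
*Zfhx4* and *Zfpm2* in 7 cell types and in empty droplets by genotype label, in CPM on linear axes starting at 0, with 1 point per library. OLs separate by label for both genes and OPCs for *Zfhx4*, at 52.1 to 109.1 against 37.0 to 49.6, and empty droplets separate for both (*Zfhx4* at 55.0 to 59.9 against 30.1 to 46.6), while astrocytes and fibroblasts overlap. The share of all genes that separate in empty droplets was not computed.

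The genes tested beside *Zfhx4* and *Zfpm2* were not called in OLs. Only 0.09% of all genes were called in that fit, so counts of 0 say little for sets this small. Within 1 Mb of *Zfhx4*, 6 genes other than members were counted and 1 passed the filter on low counts, *Pex2*, a gene for peroxisome assembly 139.393 kb away. It measured 41.8 to 51.5 CPM in the controls and 40.8 to 51.9 in the libraries labelled cKO (-0.05 ± 0.10, adjusted p = 0.91). Within 1 Mb of *Zfpm2*, 13 genes were counted, 5 were tested and 0 were called, with log2 fold changes of -0.46 to -0.12. The largest was that of *Oxr1*, an oxidation resistance gene 340.437 kb away, at 271.1 to 373.5 against 213.2 to 279.6 CPM (-0.46 ± 0.13, adjusted p = 0.33).

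To see which OLs carry the 2 genes, control OLs with at least 1 UMI of a gene were compared with the other OLs of the same libraries. In all, 11 of 11904 genes were called higher in *Zfpm2*+ OLs (0.0924%), *Zfpm2* itself included, and the 5 others with the smallest adjusted p are given here; *7630403G23Rik*, *Kit*, *Synpr* and *Nav3* were also leading genes of the *Kit* subcluster. *7630403G23Rik*, a gene without an assigned role, measured 220.7 to 246.7 CPM in *Zfpm2*+ and 88.4 to 102.3 in *Zfpm2*- OLs (log2 fold change 1.34 ± 0.10, adjusted p = 2.2e-05). *Kit*, a receptor tyrosine kinase, measured 64.5 to 87.4 and 29.0 to 34.7 CPM (1.2 ± 0.14, adjusted p = 0.0019). *Synpr*, a synaptic vesicle protein (1.63 ± 0.23), *Nav3*, a neuron navigator (1.35 ± 0.19), and *Pcdh7*, a protocadherin (1.14 ± 0.16), each had an adjusted p of 0.014, and these 5 genes were higher in 4 of 4 libraries. The groups did not overlap for any of them. With the library as a replicate block 163 genes (1.37%) were called, and the block applies because both sums come from the same library. *Zfpm2*+ OLs were the deeper nuclei, with 3082 to 4034 UMIs per nucleus against 2373 to 3223, and with thinned nuclei 3 genes were called without and 26 with the block. Without 1 library the count was 9 (replicate 1), 2 (replicate 2), 3 (replicate 3) and 3 (replicate 4). Of these 5 genes, *7630403G23Rik* was also called lower between the genotypes in OLs (-0.83, adjusted p = 0.0030), and *Kit* (-0.14), *Pcdh7* (-0.52), *Synpr* (-0.46) and *Nav3* (-0.45) were not.

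**Figure D5:**
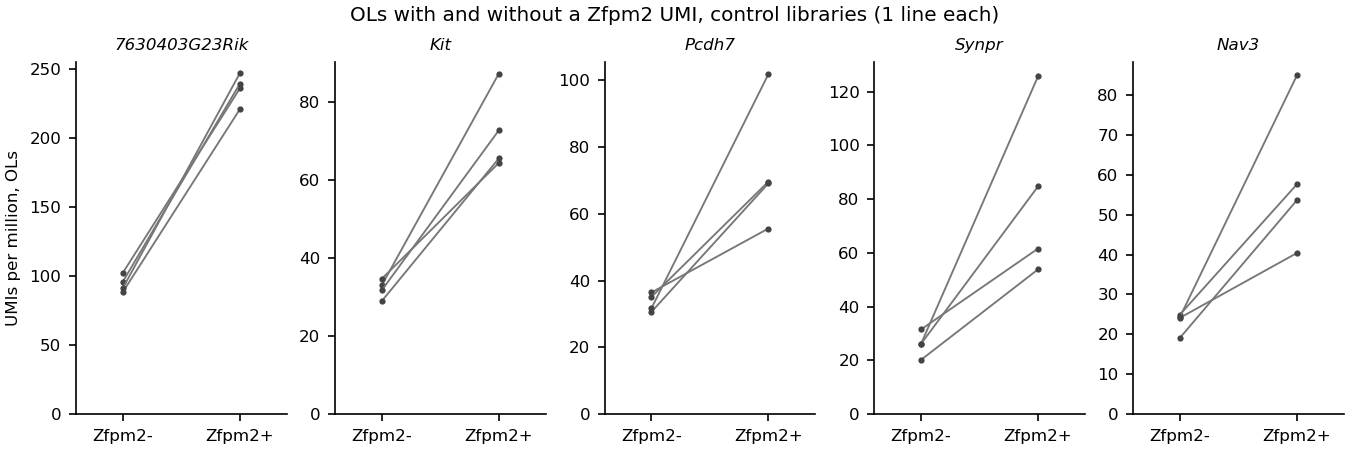
Genes that differed between OLs with and without a *Zfpm2* UMI, in CPM on linear axes starting at 0; each line joins the 2 sums of 1 control library. All 4 lines rise for *7630403G23Rik*, from 88.4 to 102.3 up to 220.7 to 246.7, and for *Kit*, from 29.0 to 34.7 up to 64.5 to 87.4.

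*Zfhx4*+ OLs were less distinct. Of 11730 genes, 1 was called (0.00853%), *Zfhx4* itself, and 292 had an unadjusted p under 0.05 (edgeR). With the replicate block 43 were called (0.367%), among them *Grm7*, a glutamate receptor (0.53 ± 0.05), and *Ralyl*, an RNA-binding protein (0.62 ± 0.08), which were higher, while *4930587E11Rik*, a gene without an assigned role (-0.51 ± 0.05), and *Adgrg6*, an adhesion receptor (-0.62 ± 0.11), were lower, each in 4 of 4 libraries. *Ralyl* was among the 9 genes called lower between the genotypes in OLs (-0.74, adjusted p = 0.0071). *Zfhx4*+ OLs were the deeper nuclei, with 3042 to 3994 UMIs per nucleus against 2362 to 3127, and with thinned nuclei and the block 6 genes were called in place of 43.

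No other member was called in the *Zfhx4* or the *Zfpm2* comparison (0 of 5 tested in each), and with DESeq2 the counts were also 0. With the replicate block, *2700069I18Rik* was called higher in *Zfhx4*+ OLs (1.01 ± 0.29, adjusted p = 0.029), at 10.0, 7.3, 9.4 and 10.1 CPM against 6.0, 7.4, 2.7 and 1.7. It was higher in 3 of 4 libraries. The 2 genes overlap on opposite strands, and how reads of the shared stretch were assigned was not checked. *Zfpm2* in *Zfhx4*+ OLs stood at 119.9, 102.2, 98.3 and 91.2 CPM against 99.8, 88.1, 82.8 and 74.5 (0.27 ± 0.07 with the block, adjusted p = 0.018, 4 of 4 libraries). *Zfhx4* in *Zfpm2*+ OLs stood at 130.4, 131.4, 112.7 and 116.6 CPM against 102.6, 99.2, 103.4 and 108.8 (0.28 ± 0.07 with the block, adjusted p = 0.0052, 4 of 4 libraries). Both differences were below the log2 limit of 0.5. With thinned nuclei and the block they were 0.19 (adjusted p = 0.96) and 0.34 (adjusted p = 0.63). Nuclei with UMIs of both genes after thinning were 1.0 to 1.56 times as frequent in the control libraries as the product of the single shares, and 1.35, 1.38, 0.30 and 1.32 times in the libraries labelled cKO, where the low value of replicate 12 rests on 1 nucleus.

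Control OLs were also divided by *Piezo2* UMIs, as in the study, and by a score made for this report. Between *Piezo2*+ and *Piezo2*- OLs, 0 of 6 members were called by edgeR or DESeq2, where 75 of 12327 genes were (0.608%; 3.35% with the replicate block) and 1100 had an unadjusted p under 0.05. The 75 became 32, 2, 8 and 10 without control replicate 1, 2, 3 and 4. *Zfhx3* came nearest, at 61.8, 59.5, 66.7 and 72.0 CPM in *Piezo2*+ and 51.5, 40.6, 41.9 and 59.8 in *Piezo2*- OLs, higher in 4 of 4 libraries (0.45 ± 0.14, adjusted p = 0.25; with the replicate block adjusted p = 2.1e-05, still under the log2 limit). *Piezo2*+ OLs were the deeper nuclei, with 2929 to 3817 UMIs per nucleus against 1998 to 2694, and with thinned nuclei *Zfhx3* was at 0.34 (adjusted p = 1.0) without and 0.31 (adjusted p = 0.42) with the block, higher in 3 of 4 libraries. The score set *Klk6*, *Apod* and *Trf* (mean level) against *Mal*, *Mog* and *Mbp*, which the study lists as subtype markers, and the 2657 OLs with the highest score were compared with the 2657 with the lowest. Here 173 of 11345 genes were called (1.52%) and 0 of 6 members, with 0 by DESeq2 and 978 genes at an unadjusted p under 0.05; the 173 became 70, 52 and 68 without control replicate 2, 3 and 4. *Piezo2* rose with the score (0.89 ± 0.15, adjusted p = 0.0046). *Zfhx3* measured 69.2, 57.9, 71.8 and 93.0 CPM at high and 44.4, 39.4, 47.3 and 55.9 at low score (0.63 ± 0.16, adjusted p = 0.076), and it was called with the replicate block (0.63 ± 0.10, adjusted p = 6.5e-06; 3.88% of all genes were) and without a filter on low counts (0.62, adjusted p = 0.0061). With thinned nuclei and the block it was 0.56 (adjusted p = 0.077). *Zfhx4* lay on the other side, at 90.8 to 94.7 CPM at high and 115.4 to 132.8 at low score without overlap (-0.45 ± 0.11, adjusted p = 0.0499), which is under the log2 limit. So did *Zfpm2* (-0.39, adjusted p = 0.00095) and *Zfhx2* (-0.30, adjusted p = 0.00047) with the replicate block, each lower in 4 of 4 libraries and under that limit. *2700069I18Rik* was lower in 3 of 4 (-0.93, adjusted p = 0.10) and *Zfpm1* in 2 of 4 (-0.22, adjusted p = 0.58). OLs of high score had 2233 to 3087 UMIs per nucleus and those of low score 2565 to 3451. With thinned nuclei *Zfhx4* was at -0.36 (adjusted p = 0.95) without and -0.37 (adjusted p = 0.14) with the block, lower in 3 of 4 libraries. Thinned and with the block, *Zfpm2* was at -0.33 (adjusted p = 0.27) and *Zfhx2* at -0.32 (adjusted p = 0.051), each lower in 4 of 4.

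Binding partners of FOG and ZFHX proteins and other zinc finger homeobox genes, which are relatives by domain and not partners, were counted from a list of 40 genes, of which 31 were tested in OLs. Between the genotypes 0 of the 31 were called in OLs, where 0.09% of all genes were. None of those tested in the other 6 cell types or in the 4 divisions of control OLs were called. Calls were rare among all genes in these fits, so nothing is read from the counts of 0. Median log2 fold changes in OLs were 0.19 for the CtBP corepressors (2 genes), -0.02 for the NuRD complex (14), 0.22 for the COUP nuclear receptors (3) and -0.13 for zinc finger homeobox genes outside the ZFHX family (11), against 0.02 for all genes. No GATA factor passed the filter in OLs. Between the cell types of the controls, 3 of 31 were called higher and 9 lower in OLs, where 41.5% of all genes were called, so the count was near that of all genes. Among the relatives, *Zeb2*, a regulator of OL maturation, was higher (1.64 ± 0.16), as were, among the partners, the NuRD subunit *Mta3* (1.02 ± 0.10) and the corepressor *Ctbp1* (0.74 ± 0.13). *Zeb1* (-5.05 ± 0.22), the NuRD remodelers *Chd3* (-3.04 ± 0.24) and *Chd5* (-3.46 ± 0.55), *Ctbp2* (-1.53 ± 0.26) and the COUP genes *Nr2f1* (-1.62 ± 0.29) and *Nr2f2* (-1.74 ± 0.30) were lower. In astrocytes 9 were called higher and 6 lower (40.5% of all genes were called), in OPCs 7 and 3 (25.0%), in fibroblasts 11 and 2 (36.1%), in myeloid cells 5 and 7 (33.2%), in neurons 5 and 5 (37.8%), in endothelial cells 8 and 1 (17.9%) and in T cells 2 and 2 (8.87%). *Nr2f1* (2.98) and *Nr2f2* (1.52) were higher in astrocytes, as they were in fibroblasts (1.74 and 3.11), while *Nr2f2* was lower in OPCs (-1.23) and *Nr2f1* in neurons (-1.11), all types in which *Zfpm2* was called higher. *Zeb1* (2.71) and *Chd5* (2.50) were higher in OPCs, and the GATA factor *Gata2* in endothelial cells (7.33 ± 0.51).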

How the data were processed

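Nuclei of pooled optic nerves were sequenced with a droplet kit for 3′ ends. The authors deposited counts of UMIs per gene and barcode for every barcode, without normalization, made with Cell Ranger 7.0.0 on GRCm39 according to the submitters' processing notes; ambient RNA, low-quality nuclei and doublets were still in them. Nuclei were called as in Cell Ranger (8000 expected, candidates with at least 500 UMIs at a false discovery rate of 0.01) and kept with at least 200 genes and at most 5% mitochondrial counts, and doublets were removed at 0.8% per 1000 nuclei. No ambient RNA was subtracted. Leiden clustering (scanpy 1.11.5, resolution 3) used 3000 variable genes and 30 components without the members; the rules for naming clusters were written with the clusters in view, and 3000 nuclei in unnamed clusters entered no test by cell type. For each library and cell type, raw counts were summed (at least 10 nuclei and 1000 counts; at least 3 libraries a group) and tested with edgeR 4.0.16 (glmQLFit, TMM, filterByExpr, Benjamini-Hochberg over all genes tested), with DESeq2 1.42.0 as the alternative. Library depth limits sparse genes most, and p-values measure only the spread between libraries of pooled nerves. Members and gene lists were chosen with earlier results of these data known. Named genes are the members, their antisense and neighbouring genes, up to 4 called genes per partner or homeobox list and comparison, the 3 genes most alike per member and the 5 smallest adjusted p-values per division by *Zfhx4* or *Zfpm2*; *Zfhx2os*, *Piezo2* and *Olig2* were added as checks. Of these, 1 gene and 1 sequence are not reported here. For the divisions of control OLs, both sums come from the same library, and their deviations from the group means correlated at 0.31 to 0.57 in every pair. Control and cKO replicates share no numbers. Alternatives were DESeq2, RLE size factors, no filter on low counts, thinning, the replicate block, resolution 1.6, each library left out and the removal of 1 OL subcluster (1208 nuclei) of mostly 1 library.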

Additional observations from a re-analysis of the deposited data

Results flagged for a closer look

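In groups of 4 libraries, 9 of 83 member levels had 1 library whose gap to the nearest other exceeded Dixon's 95% limit, and chance alone flags about 1 in 20. In astrocytes of the libraries labelled cKO, *2700069I18Rik* was low in replicate 13 (41.5 CPM, others 55.9 to 57.0), *Zfhx2* was high in replicate 10 (100.2, others 74.3 to 76.5), *Zfpm2* was high in replicate 10 (487.9, others 452.5 to 457.0) and *Zfhx3* was high in replicate 12 (146.9, others 118.6 to 120.4). In OPCs of these libraries, *2700069I18Rik* was high in replicate 10 (13.8 CPM from 6 UMIs, others 0 to 2.13). In their fibroblasts, *Zfpm2* was high in replicate 10 (253.9 CPM, others 194.4 to 200.7). In the controls, *Zfhx3* was low in fibroblasts of replicate 2 (176.6 CPM, others 240.5 to 251.4), *Zfhx4* was high in neurons of replicate 1 (396.1, others 135.2 to 178.8), and *Zfpm2* was high in endothelial cells of replicate 3 (138.2, others 41.3 to 57.2).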

How the results depend on the processing

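Of 993 alternative values of single members, 951 kept their side of the threshold, 25 passed it and 17 lost it; 45 values changed sign, none of them a called value. Genes called over the 8 cell type contrasts fell from 28881 to 14683 with nuclei thinned to 1000 UMIs. In a different alternative, without 1 library, the 25 member calls became 21 to 24, of which 21 to 23 were among the 25. Genes called between genotypes in OLs rose from 13 to 57 with DESeq2 and 44 without a filter on low counts, and ranged from 10 to 18 without 1 library. In the other 6 cell types 19 genes became 40 with DESeq2 and 361 without a filter, 12 to 27 without 1 library (12 without cKO replicate 10 or 11), and 1 member call appeared without a filter, *Zfhx4* in OPCs. The division by *Piezo2* went from 75 genes to 116 with DESeq2, 175 without a filter, 11 with thinning, 413 with the replicate block and 2 to 32 without 1 library. The division by *Zfhx4* went from 1 gene to 2 without a filter, 43 with the block and 6 with thinning and the block, and 1 member call, *2700069I18Rik*, appeared with the block. The division by *Zfpm2* went from 11 genes to 36 with DESeq2, 50 without a filter, 3 with thinning, 163 with the block, 26 with thinning and the block and 2 to 9 without 1 library. The subtype score went from 173 genes to 280 without a filter, 11 with thinning, 440 with the block, 108 with thinning and the block and 52 to 148 without 1 library, and 1 member call, *Zfhx3*, appeared without a filter and with the block. The fits with thinning and the block were chosen after seeing the data. Thinned shares of OLs with a UMI were 10.3% and 3.99% for *Zfhx4* and 8.34% and 4.29% for *Zfpm2* in control and cKO libraries. The cause of these changes was not tested. In the cell type comparison, the replicate block changed no other call than those given for *Zfhx3*, *Zfhx4* and *Zfpm1*. At resolution 1.6 no cluster was named neuron, so neurons have no value there, and *Zfhx3* in astrocytes (-0.43) lost its call; *Zfhx2* in myeloid cells (-0.61) lost it with thinning.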
